A study of Homo sapiens with 172 samples.

Results

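Human chromosome 5 was described by its contacts with the nuclear lamina in single cells. Its members were all 100 kb bins of chromosome 5 that were neither empty nor 0 in every column of the deposited table, which left 1759 of 1810 bins. They make up part of the 26414 such bins on 22 chromosomes or joined chromosomes. The p arm, the short arm, held 464 of the bins and the q arm, the long arm, held 1295. The cells were KBM7, a near-haploid human leukaemia line, all haploid cells of clone 5-5 with Dam methyltransferase fused to LaminB1, a lamin of the nuclear lamina. Shield1, a small molecule that stabilises the fusion, was given at 0.5 nM over 15 h. By their Fucci markers of the cell cycle, double-positive cells were sorted singly, from the smallest 2% in size. There was no second group, no other clone and no named culture, so no test was made and every SD below is over cells. The labels name 172 samples and the table holds 168 columns, which come from 84 cells.

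The lamina is a protein mesh that lines the inside of the nuclear envelope. Regions that meet it, known as lamina-associated domains, are typically long, poor in genes and low in transcription. In DamID the tethered enzyme marks adenines in GATC where DNA comes close to the lamina, and the marked fragments are amplified and sequenced, so the contacts of a cell are read from its own DNA. Chromosome 5 is a large chromosome with a short p arm, and it is known for broad gene deserts next to dense gene clusters. It had 903 coding genes in the GRCh38.p14 gene table, or 4.99 per Mb of its length in the file, which was rank 5 from the lowest of 20 chromosomes (median 5.77 per Mb). Bands and the genes they are known for are given below as textbook background. No hg19 annotation was set against the bins, and no gene was assigned to a bin.

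The table gives the ratio of observed over expected reads per bin, and a ratio of 1 or more was taken as lamina contact of that bin in that cell. The contact frequency of a bin is the percent of the 84 cells in which it was in contact. Columns whose sample numbers differ by 86 hold the same cell: each of the 168 columns correlated best with the column 86 numbers away, so their ratios were averaged. The deeper column of a cell had from 7134 to 418937 reads (median 63700) as worked back from the ratios, of which from 150 to 38996 (median 5418) lay on chromosome 5. In a median bin of chromosome 5 the ratio 1 equalled 2.67 reads for the median cell, while 13 cells had it below 1 read. A bin without contact may therefore be a bin whose contact went unread. In those 13 cells, 1 read could be enough for a contact call.

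Several cells stood apart on chromosome 5 before any region was examined. Cell 79 had 104 of its 41795 reads on chromosome 5 in its lower-numbered column, or 0.249%, against a median of 7.71% over cells, and 8 other chromosomes or joined chromosomes of that cell were also under 5% of their medians. Its higher-numbered column had 1156 of 59986 reads there, or 1.93%. Cell 69 had 12.2% of its reads on chromosome 5 and was nearly without reads on chromosomes 2, 7, 10, 12, 20 and 21. Whether the ratios of its other chromosomes are raised by this was not tested. Cell 63 was nearly without reads on chromosomes 17 and 21 and the joined 22:9. The arm and chromosome differences and the correlations between arms and between stretches are also given without cells 63, 69 and 79. Cell 48 had a read in 1743 of the 1759 bins.

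Contact along chromosome 5 alternated between bins that met the lamina in most cells and bins that met it in almost none, and no bin met it in nearly all cells. In all, 691 bins (39.3%) were in contact in at least 50% of cells, where the background over all covered bins was 30.7%. Fewer than 5% of cells had contact at another 441 bins (25.1%), against a background of 36.7%. Between them, 327 bins (18.6%) lay from 20% to under 50%, with a background of 17.0%, and 300 (17.1%) from 5% to under 20%, with a background of 15.6%. Frequencies from 60% to under 70% were held by 320 bins and those under 10% by 602, while each class of 10 points from 10% to under 50% held between 105 and 139 bins. Members just inside the 50% limit were 21 bins at 50.0%, and those just outside were 15 bins at 48.8%.

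**Figure D1:**
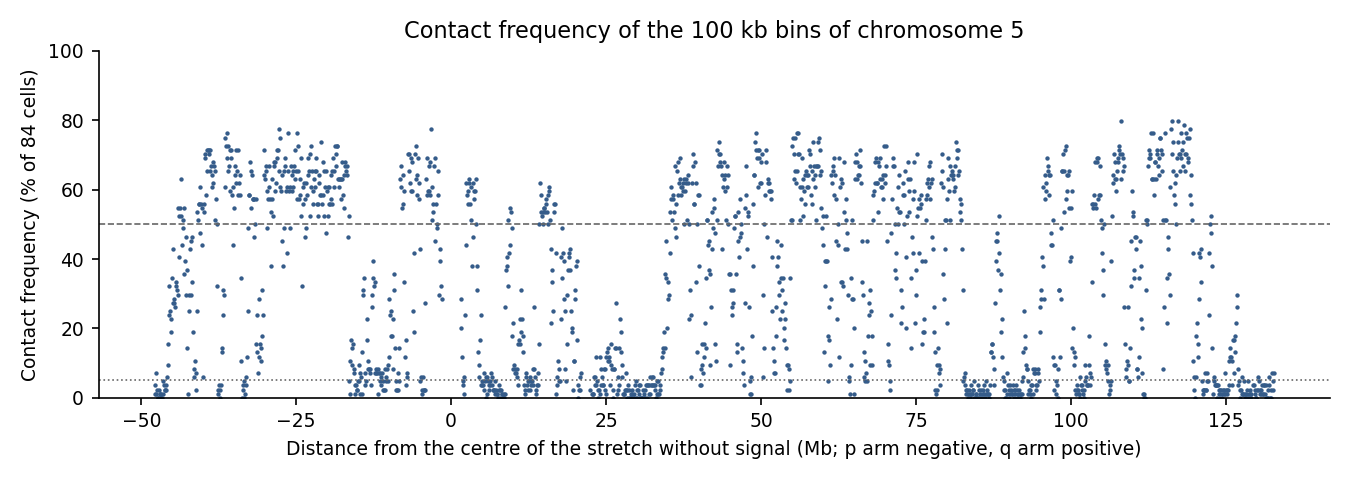
Contact frequency (percent of 84 cells, vertical axis) of each covered 100 kb bin of chromosome 5, plotted by its distance in Mb from the centre of the stretch without signal between the arms. Points gather between 50% (dashed line) and 80% or near 0 (dotted line at 5%), and no point reaches 80%.

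No bin of chromosome 5 was in contact in at least 80% of cells, while 80 bins, or 0.303% of all covered bins, were. At most 67 of 84 cells had contact at 1 bin, a frequency of 79.8% (exact Clopper-Pearson 95% interval 69.6 to 87.7%) that 3 bins of the q arm shared, chr5:155900001-156000000, chr5:164100001-164200000 and chr5:165100001-165200000. The highest bins of the p arm, chr5:20100001-20200000 and chr5:44600001-44700000, were in contact in 65 cells each (77.4%, interval 67.0 to 85.8%). The intervals cover counting error only and include 80%, so these bins are not shown to lie below that limit. At the other end, 71 bins (4.04%) had no contact in any cell, against 6.19% of all covered bins. A count of 0 in 84 cells still leaves room for a frequency of 3.57%.

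As a whole the p arm was more often at the lamina than the q arm. The block described next, picked for its high values, held many of the p arm's contacts. In a cell, 40.8% ± 14.6 of the p arm was in contact and 30.7% ± 12.6 of the q arm (SD, n = 84), a difference of 10.2 ± 10.6 percentage points. The p arm was higher in 70 of 84 cells. Over cells the p arm ran from 1.08% in cell 79 through a median of 43.1% to 69.8% in cell 69, and the q arm from 0.154% through 31.4% to 60.7% in the same cells. The difference itself ran from -14.2 points in cell 13 to 34.5 points in cell 8. More than 50% of the p arm was in contact in 22 cells, and more than 50% of the q arm in 5 cells. In the 35 cells with at least 100000 reads the arms had 48.6% and 34.8%, a difference of 13.8 ± 9.16 points, with the p arm higher in 32 cells. Without cells 63, 69 and 79 the difference was 10.3 ± 10.7 points, with the p arm higher in 67 of 81 cells. At least 50% of cells had contact at 240 of the 464 p arm bins (51.7%) and at 451 of the 1295 q arm bins (34.8%). Bins under 5% made up 14.9% of the p arm and 28.7% of the q arm. The expectation per bin, which sets its depth, averaged 306 ± 68.6 units on the p arm and 316 ± 56.8 on the q arm (SD over bins).

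The p arm held 1 long block of contacted bins. From chr5:17400001 to 31400000 every bin was in contact in at least 20% of cells, which made a stretch of 14.0 Mb with a mean frequency of 61.0%. This block was singled out after its values were seen. It was the longest stretch at that limit among 1084 in the genome, ahead of 1 of 10.3 Mb on chromosome 4 and 1 of 9.2 Mb on chromosome 2. It held 30.2% of the p arm's bins and 45.1% of its contacts. Outside the block 32.1% ± 12.3 of the p arm was in contact (SD, n = 84). That was 1.44 ± 9.57 points above the q arm, and higher than the q arm in 40 of 84 cells. Since the block was picked for its high values, leaving it out lowers the p arm by construction. The q arm kept its own contacted stretches, so this does not show how far the block accounts for the arm difference. At a cutoff of 2 the longest p arm stretch shrank to 6.2 Mb and ranked 5 of 22 chromosomes.

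By its position the 14.0 Mb block spans band 5p14 and its borders. That band is a textbook gene desert, known for the type II cadherin genes CDH18, CDH12, CDH10 and CDH9, which encode cell adhesion proteins used mainly in the nervous system. Within the block 126 of 140 bins (90.0%) were in contact in at least 50% of cells, and the other 14 ran between 23.8% and 48.8%. The deepest interior dip was the single bin chr5:23800001-23900000 at 32.1%, between neighbours in stretches that averaged 64.2% before it and 58.9% after it. The bin before the block stood at 17.9% and the bin after it at 4.76%, so its far end was the more abrupt. In single cells the block was in contact over 1.43% of its bins in cell 79, over 64.3% in the median cell, and over 97.1% in cell 60. At least 50% of it was in contact in 59 cells and at least 90% in 10, while no cell was without a contact in it. Its frequency was 75.9% in the cells with at least 100000 reads, 54.5% for cells 1 to 29 and 64.5% for cells 30 to 86, the numbers being those of the labels.

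The 10 longest stretches with every bin in contact in at least 50% of cells were between 2.0 and 5.0 Mb long, 3 on the p arm and 7 on the q arm. In all, 93 such stretches covered 69.1 Mb with a median of 0.4 Mb, and 23 of them reached 1 Mb. On the p arm, chr5:27700001-31200000 (3.5 Mb) had a mean frequency of 63.2%, and chr5:24500001-27600000 (3.1 Mb) had 62.0%. Only the bin between them, at 47.6%, keeps them apart, and both belong to the 14.0 Mb block. Nearer the end of the arm, chr5:7900001-10100000 (2.2 Mb) had 63.9%.

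The longest of these stretches was on the q arm, chr5:102700001-107700000, with 5.0 Mb and a mean of 64.5%. It ranked 4 by length among 1031 in the genome, a place shared with stretches on chromosomes 1 and 16. The stretch with the highest mean was chr5:163900001-167500000 (3.6 Mb), at 68.3%, in band 5q34. Close to it, chr5:160000001-162800000 (2.8 Mb) had 66.0%.

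The remaining long q arm stretches had frequencies in the same range. chr5:154500001-156500000 (2.0 Mb) had 66.7%, chr5:115900001-118200000 (2.3 Mb) had 63.3%, and chr5:127900001-130300000 (2.4 Mb) had 62.8%. The lowest of the 10, chr5:84200001-86300000 (2.1 Mb), had 60.4%. The means of the 10 stretches ran from 60.4 to 68.3%, and the SD over cells of each was between 27.2 and 32.6 points. That SD does not measure whether stretches differ, and differences between stretches within cells are not given. In the cells with at least 100000 reads all 10 were higher, from 67.2 to 80.6%. The order then changed, with chr5:27700001-31200000 highest and chr5:115900001-118200000 lowest.

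Several of the q arm stretches belong to a wide contacted zone in the middle of that arm. From chr5:81700001 to 130900000, between 2 of the free stretches described next, the mean frequency was 45.3% over 492 bins. Of these bins 276 (56.1%) were in contact in at least 50% of cells and 23 in under 5%. The zone held 28.0% of the bins of chromosome 5 and 37.9% of its contacts, and 1 cell had no contact in it. It runs from band 5q14 to the edge of 5q31. This zone too was chosen after its values were seen.

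Free stretches, with every bin in contact in under 5% of cells, numbered 108, with a total of 44.1 Mb and a median of 0.2 Mb. Of these 25 were on the p arm, which has 464 of the 1759 bins, and 83 on the q arm, which has 1295. The longest, chr5:130900001-134900000 (4.0 Mb), ranked 38 by length among 1547 such stretches in the genome. It had a mean frequency of 1.55%, and the contacted zone was defined to end where it starts. It lies in band 5q31.1, known for the cytokine genes IL3, CSF2, IL5, IL13 and IL4, which encode growth and signalling factors of blood and immune cells. Next came chr5:76200001-80000000 (3.8 Mb), at 1.54%. After it, chr5:137600001-140100000 (2.5 Mb), had 1.76%. It lies mostly in band 5q31.2, known for EGR1, a transcription factor gene switched on early after growth signals, and HSPA9, a mitochondrial chaperone gene.

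The other 7 free stretches of the 10 longest were from 0.9 to 2.1 Mb long. chr5:54500001-56600000 had 1.76%. chr5:171000001-172800000 had 2.18%, chr5:175600001-177100000 had 1.51% and chr5:178200001-179900000 had 2.1%, and all 3 lie near the gene-dense end of the q arm in band 5q35. chr5:80500001-81700000 had 2.68% and chr5:140900001-141800000 had 2.25%. The single member on the p arm, chr5:300001-2000000, had 1.75% and lies in 5p15.33, known for TERT, the catalytic subunit of telomerase.

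Contacts in the free stretches were unevenly spread over cells. Of the 84 cells 32 had no contact in any of their 212 bins, and the median cell had 0.708% of them in contact. The 5 highest cells held 41.9% of the 320 contacts, with 18.4% of the bins in contact in cell 48, 16.5% in cell 72, 11.3% in cell 54, 9.91% in cell 6 and 7.08% in cell 18. Cell 48 is the cell with reads in nearly every bin. Free and contacted bins had similar expectations, 309 ± 67.9 units in bins under 5% and 312 ± 45.2 units in bins at 50% or more (SD over bins).

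Of the 5 sharpest borders between higher and lower bins, 3 were on the p arm. The largest step lay at chr5:40900001, where the mean frequency was 67.4% in the 0.5 Mb after it and 9.05% in the 0.5 Mb before it, a difference of 58.3 ± 35.7 points (SD, n = 84). The far side was higher in 71 cells, lower in 1 and equal in 12. Steps of 55.7 ± 38.0 and 55.2 ± 36.7 points lay at chr5:39600001 and chr5:43800001, also on the p arm, and 1 of 54.0 ± 30.2 points lay at chr5:96600001, with the far side higher in 77 cells and lower in none. Going the other way, the frequency was 8.57% after chr5:118300001 and 62.1% before it, a step of -53.6 ± 35.3 points that was lower after the border in 70 cells and higher in 1. These 5 steps were picked as the largest, so their sizes are descriptions.

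Both ends of chromosome 5 were away from the lamina, while the 2 Mb flanks of its centre had more contact. The first 2 Mb had a mean frequency of 2.08%, with no contact in 63 cells, and the last 2 Mb had 2.71%, with no contact in 60. In no cell did either end reach 50% of its bins. The longest stretch without signal, chr5:46400001-49400000, separates the arms and lies at the centromere. On its p side 52.9% ± 29.4 of the adjoining 2 Mb was in contact and on its q side 37.9% ± 24.2 (SD, n = 84). Single bins ran from 28.6 to 77.4% on the p side and from 1.19 to 63.1% on the q side. The low bins of the q side were those nearest the stretch without signal, of which the first had 20.2%. On the p side 11 cells had at least 90% of these bins in contact, and on the q side no cell did.

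A second stretch without signal, chr5:68900001-70300000, is followed after 1 covered bin by another of 0.2 Mb. Band 5q13.2 at this position is known for a large duplicated segment, and the link between the missing signal and that segment was not tested. The covered bin between them was in contact in 2.38% of cells, the 0.5 Mb before them in 3.57% and the 0.5 Mb after them in 2.62%. Low contact went on beyond, with a mean of 5.12% from chr5:70600001 to 82400000, where 78 of 118 bins were under 5% and no bin reached 50%. The last part of this region, from chr5:81700001, is also counted in the contacted zone of the q arm.

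In a single cell, 33.4% ± 12.3 of chromosome 5 was in contact, against 27.4% ± 6.36 of all other chromosomes together (SD, n = 84). Chromosome 5 was above the rest by 6.01 ± 8.88 points and higher in 63 of 84 cells, and without cells 63, 69 and 79 by 5.92 ± 8.13 points and in 61 of 81. Its share ran from 0.398% in cell 79, with 7 bins in contact, through a median of 33.8% to 63.1% in cell 69. The middle 50% of cells lay between 25.3% and 40.6%. After cell 79 the lowest were cell 19 with 8.30% and cell 4 with 9.32%, and after cell 69 the highest were cell 72 with 55.2% and cell 61 with 55.0%. Cell 19 had the fewest reads of all cells and the lowest share on the other chromosomes, 14.9%. Cell 4 had 22.9% on the other chromosomes and 2.04% of its reads on chromosome 5 in the lower-numbered column.

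**Figure D2:**
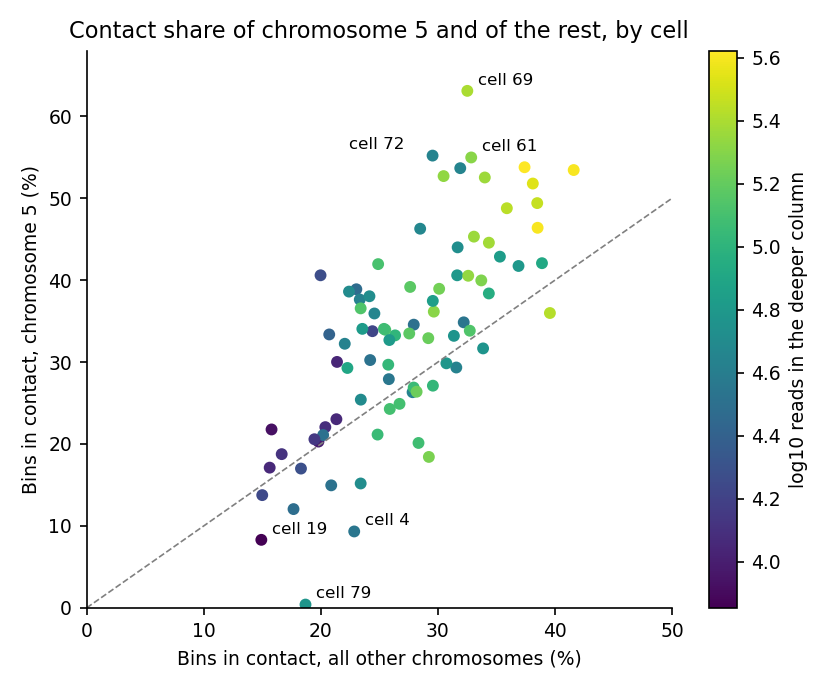
Percent of bins in contact on chromosome 5 (vertical axis) against all other chromosomes (horizontal axis), with 1 point per cell (84 cells) and colour for log10 reads in the deeper column. The dashed line marks equal shares. In 63 cells the point lies above the line, cell 69 stands farthest above it and cell 79 farthest below it.

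The place of chromosome 5 among the 22 chromosomes changed from cell to cell. It ranked first in contact share in 10 cells and among the top 5 in 42, and in 17 cells it ranked 12th or lower. By mean share it ranked 4, after chromosomes 4, X and 18. The SD of its share over cells ranked 1 of the 22, but rank 3 without cell 79 (11.8 points) or without cell 69 (11.9 points) or without cells 63, 69 and 79 (11.5 points), and rank 5 in cells 1 to 29. Once a linear fit on the share of the other chromosomes was taken away, its SD was 8.56 points, rank 4 of the 22. The share of chromosome 5 moved with that of the other chromosomes (Pearson r = 0.72, Spearman rho = 0.71, n = 84 cells, and r = 0.70 without the 2 cells farthest from the median, and 0.73 without cells 63, 69 and 79). It also moved with log10 reads (r = 0.58, rho = 0.56). Both shares come from the same library of a cell, and how much of the variation is due to depth was not tested. The 35 deeper cells had 38.5% ± 11.3.

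**Figure D3:**
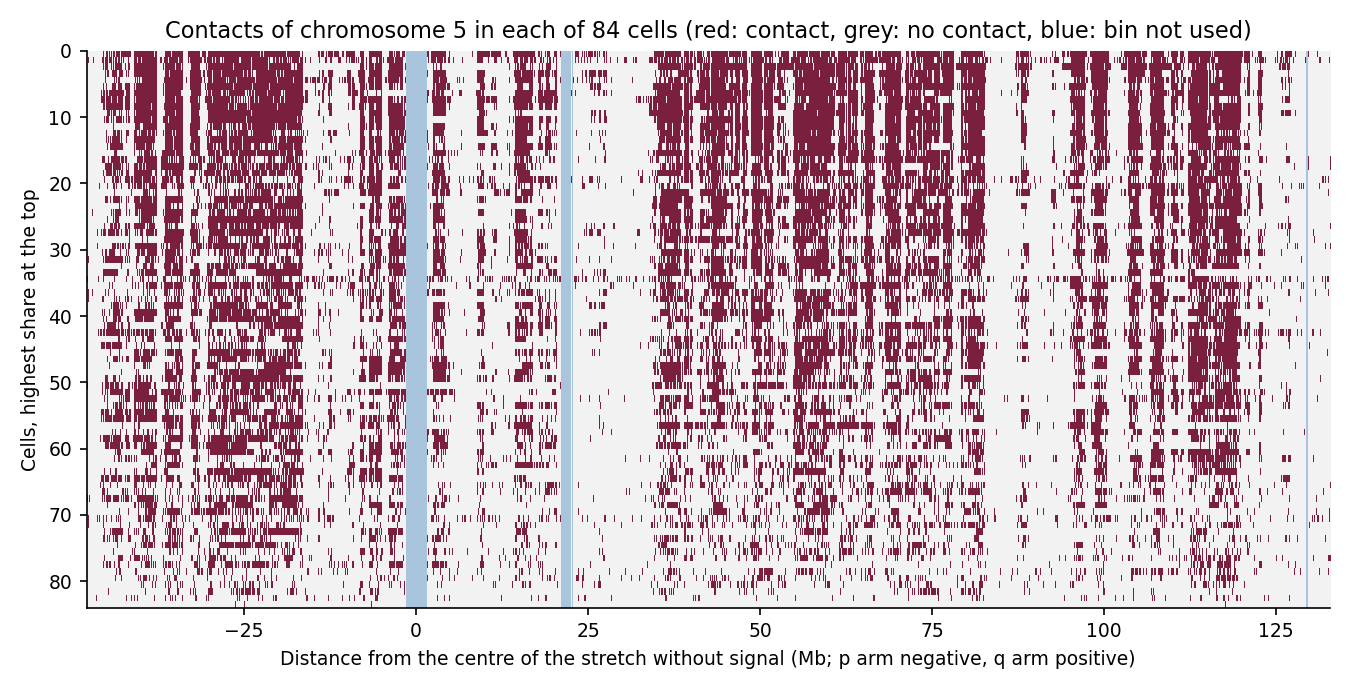
Contact calls of chromosome 5 in each of 84 cells (rows, highest share at the top) along the chromosome (horizontal axis, distance in Mb from the centre of the stretch without signal). Red marks contact, grey no contact and blue a bin not used. Most cells use the same columns of red, filled to different degrees, and the free stretches carry scattered red marks.

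Contacts came as runs of adjacent bins. A cell had 168 ± 54.7 runs on chromosome 5 with a mean length of 3.79 ± 1.90 bins (SD, n = 84), from 1 bin in cell 79 and 1.17 bins in cell 19 through a median of 3.39 to 8.69 bins in cell 75. Single bins were 49.4% of the 14086 runs but held 14.1% of the contacts. Runs of 10 bins or more, which is 1 Mb, were 8.52% of the runs and held 41.9% of the contacts. A run of at least 1 Mb was present in 76 cells and one of at least 3 Mb in 37. Run length moved with depth (r = 0.78 and rho = 0.78 for log10 reads and mean run length, n = 84 cells). A bin without a read ends a run, and the part of depth in the run lengths was not tested.

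The longest runs lay in the 14.0 Mb block and in the longest q arm stretch. Cell 60 had a run of 7.8 Mb at chr5:23600001-31400000, cell 75 one of 7.4 Mb at chr5:23900001-31300000, cell 78 one of 7.3 Mb at chr5:23200001-30500000 and cell 45 one of 6.8 Mb at chr5:24500001-31300000. All 4 are in the block and cross the gap between its 2 long stretches. Next came a run of 5.3 Mb in cell 35, which covered the longest stretch of the q arm at chr5:102700001-108000000. These 5 cells had from 176643 to 292378 reads. Over all cells the longest run of a cell was 2.93 ± 1.53 Mb. It overlapped the 14.0 Mb block in 25 cells, the longest q arm stretch in 11 and chr5:163900001-167500000 in 11.

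In most cells a contacted stretch was neither all at the lamina nor all away from it, in 67 to 80 cells depending on the stretch. Stretch chr5:102700001-107700000 had every bin in contact in 2 cells and none in 2, so that 80 cells had part of it in contact. In chr5:84200001-86300000, 13 cells had every bin in contact and 4 none. Over the 10 stretches at least 50% of the bins were in contact in between 53 and 61 cells, and at least 90% in between 17 and 35 cells. The stretches were picked for bins in contact in at least 50% of these same cells, so high counts follow in part by construction. The stretch with most such cells was chr5:154500001-156500000, with 35 cells at 90% or more, 20 of which were among the 35 deep cells. In no stretch did more than 3 of the 35 deep cells have 10% or less in contact. Length differs between these stretches, and a longer one has more bins that can be missed.

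**Figure D4:**
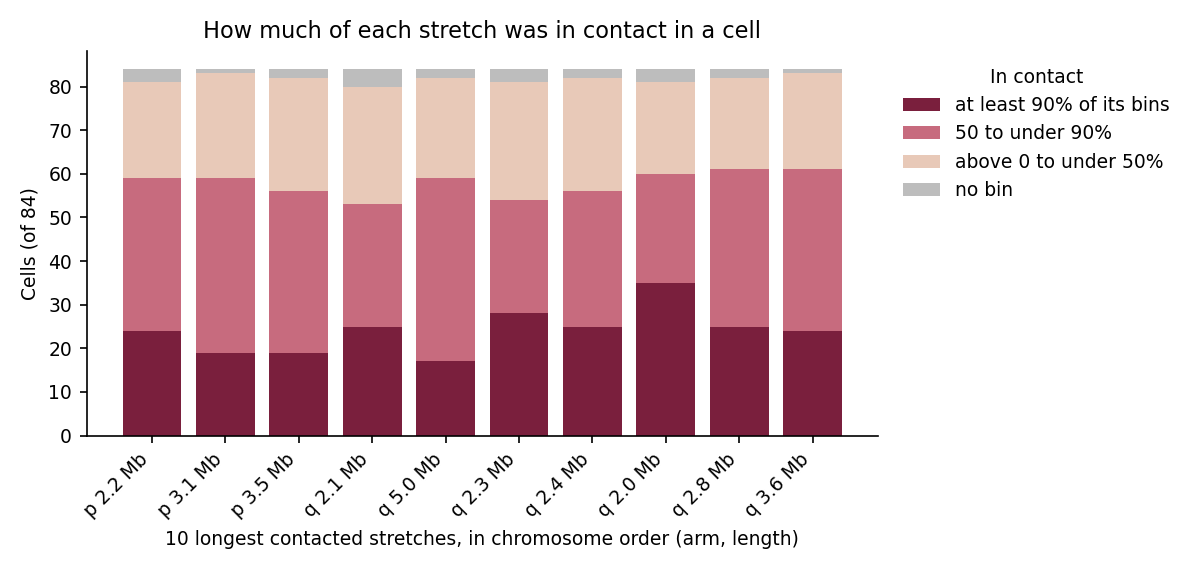
Number of cells (vertical axis, of 84) by how much of each of the 10 longest contacted stretches was in contact, in chromosome order (labelled by arm and length). Between 53 and 61 cells had at least 50% of a stretch in contact, and at most 4 had none of it. The stretches were picked for high contact in these same cells.

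The stretches went together in many cells. All 10 had at least 50% of their bins in contact in 25 cells, none had in 4, and the median cell had 8 of them. The share of each stretch was then correlated between stretches over the 84 cells, after a linear fit on the share of the other chromosomes. All 45 pairs were positive, with a mean r of 0.34. Without cells 63, 69 and 79 they ran from 0.078 to 0.61 with a mean of 0.31. Pairs on the same arm averaged 0.41 (24 pairs) and pairs on different arms 0.25 (21 pairs). Distance differed as well. Pairs over 50 Mb apart, which take in all pairs on different arms, averaged 0.27 (26 pairs). The 3 pairs under 5 Mb apart, all on the same arm, averaged 0.59. The parts of arm and of distance were not tested. The highest value, 0.62 (rho = 0.60), joined the 2 neighbours in 5q34, which lie 1.1 Mb apart, and the next, 0.60 (rho = 0.56), joined chr5:102700001-107700000 and chr5:84200001-86300000, which lie 16.4 Mb apart. The lowest, 0.11 (rho = 0.096), was between chr5:115900001-118200000 and chr5:7900001-10100000, 106 Mb apart. All stretches of a cell share its library and depth, which differs between cells, so these values are descriptions.

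**Figure D5:**
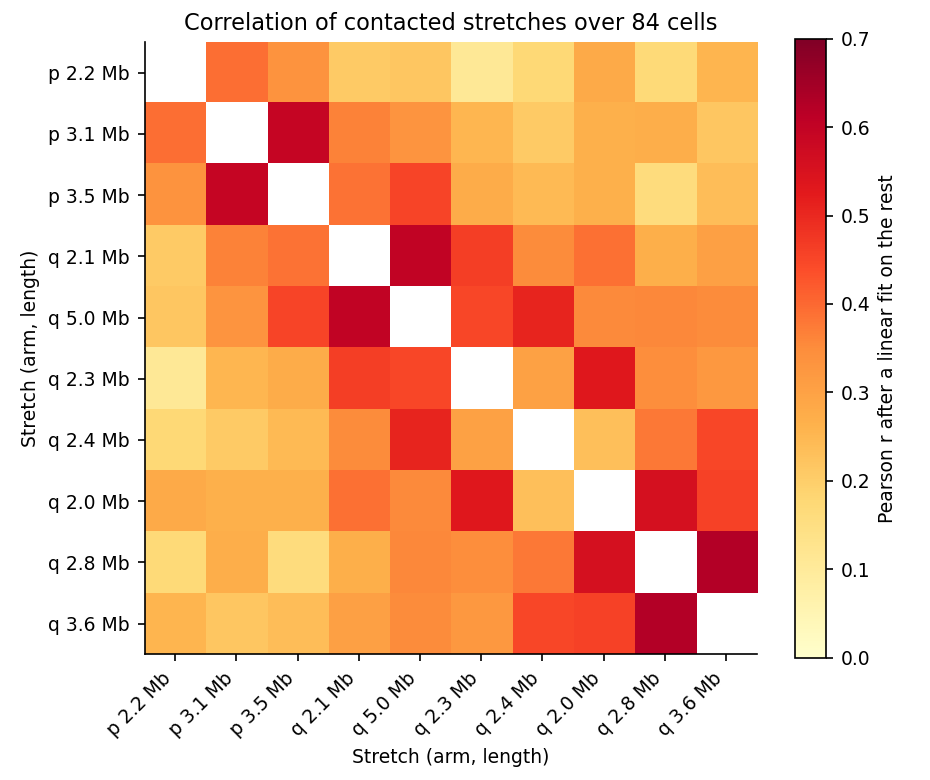
Pearson r over 84 cells between the shares in contact of the 10 longest contacted stretches, after a linear fit on the share of the other chromosomes, in chromosome order (labelled by arm and length). Values run from 0.11 to 0.62, and the darkest squares join the 2.8 and 3.6 Mb stretches of the q arm, the 2.1 and 5.0 Mb stretches of the q arm, and the 3.1 and 3.5 Mb stretches of the p arm.

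The 2 arms also moved together. Their shares correlated at r = 0.71 (rho = 0.65, n = 84 cells, 0.66 without the 2 cells farthest from the median), and at r = 0.47 (rho = 0.49) once the share of the other chromosomes was fitted. Without cells 63, 69 and 79 the fitted value was 0.39. In 16 other chromosomes or joined chromosomes with 2 arms it averaged 0.45 ± 0.11 (SD over chromosomes), and chromosome 5 ranked 6 among these and itself. Single bins of 20% to under 80% correlated at 0.41 with the bin next to them, at 0.21 over 1.1 to 2.0 Mb, at 0.13 over 5.1 to 10.0 Mb and at 0.088 over 20.1 to 50.0 Mb. The other chromosomes averaged 0.44 ± 0.040, 0.27 ± 0.056, 0.15 ± 0.043 and 0.092 ± 0.034 at these distances (SD over 20 chromosomes, 19 for the last). Chromosome 5 lay below these means but within 1 SD at each distance. From the highest, it ranked 17, 18, 15 and 9 among these and itself. Beyond 100 Mb the value was 0.052 on chromosome 5 and 0.045 ± 0.021 on 11 others, too weak to read in sparse counts.

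Chromosomes 4 and 6, the nearest in length, were set beside chromosome 5. Chromosome 5 had a contact share of 33.4% ± 12.3, chromosome 4 of 37.8% ± 12.3 and chromosome 6 of 32.9% ± 9.55 (SD, n = 84). The difference from chromosome 4 was -4.42 ± 11.2 points, with chromosome 5 higher in 26 cells. That from chromosome 6 was 0.421 ± 10.9 points, with chromosome 5 higher in 45 cells. Each SD gives the spread over cells and does not measure whether the chromosomes differ. That spread includes cell 79, which gave the lowest difference from chromosome 6, -47.5 points. Mean runs were 3.79, 3.91 and 3.88 bins on chromosomes 5, 4 and 6. The highest frequency of a bin was 79.8% on chromosomes 5 and 4 and 88.1% on chromosome 6, which had 23 bins in contact in at least 80% of cells. Among bins of 20% to under 80%, 2 cells gave the same call in a median of 54.2% of bins on chromosome 5, 53.4% on chromosome 4 and 55.5% on chromosome 6, over 3486 pairs of cells each.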

How the data were processed

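The authors deposited 1 table of observed over expected ratios per 100 kb bin. Per the submitters' processing notes, cutadapt and Bowtie2 2.1.0 were used with hg19. Neither the handling of duplicates nor the origin of the expectation is stated in the labels or headers used here. Samples 81, 82, 167 and 168 were not analysed here. Bins of chromosome 5 without a value (44) or at 0 in every column (7) were left out. Columns n and n + 86 were averaged, although 172 separate cells were labelled. Reads and expectation units were worked back from the ratios, which are whole multiples of a step per bin and column. All values above 0 (100%) came out whole within 0.02. The arms were taken on either side of the longest stretch without signal. Ranks and fits used all 26414 bins. Functions were tested on simulated data. Named regions followed a rule: the 10 longest stretches at 50% or more and under 5%, the 3 highest bins, 5 steps, ends and centre flanks, and for cells the 3 highest and lowest and cell 79. Members, lists and rules were chosen with earlier results of these data known. Cells of 1 clone are not replicates, so no p-value was made. PCR reads are not independent molecules, so intervals and limits cover counting error only. Alternatives were a cutoff of 0.5 or 2, scaling each cell by its mean, single columns and subsets of cells. Bands and their genes are textbook background, since no hg19 annotation was used. Python 3.11.15, numpy 2.4.6, pandas 2.3.3, scipy 1.17.1 and matplotlib 3.10.9 were used.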

Additional observations from a re-analysis of the deposited data

How the results depend on the processing

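Of 156 values (13 results under 12 alternatives), 143 stayed within 1 SD, the exact interval or 1.5-fold. None changed sign, but shares, run lengths and SDs cannot be negative. For shares the SD was the wide one over cells. The share of chromosome 5 therefore counted as unmoved at 43.4% with a cutoff of 0.5. At a cutoff of 2 the contact share of chromosome 5 was 19.8% and that of the p arm 24.0%, 5.97% of bins were in contact in at least 50% of cells and 39.2% in under 5%, the median frequency of the 10 contacted stretches was 41.7%, and the longest stretch at 20% of cells, an alternative added after seeing the data, was 6.2 Mb. A higher cutoff gives fewer contacts by construction. At a cutoff of 0.5, 10.6% of bins were under 5% and the median of the stretches was 75.3%. In the cells with at least 100000 reads that median was 75.8% and adjacent bins correlated at 0.50. The correlation of adjacent bins was 0.35 in cells 1 to 29. For the arms, the correlation was 0.34 among cells 1 to 29, 0.33 among odd-numbered cells and 0.62 among even-numbered ones, which differ in no stated way, and the cause was not tested. Of 240 values of single stretches, 215 stayed within their exact interval. The 25 outside were all of contacted stretches, at a cutoff of 0.5 or 2 or in the cells with at least 100000 reads. No value of a free stretch lay outside. With its 14.0 Mb block included, the p arm stayed above the q arm in all 12 alternatives, by 5.78 to 13.8 points. Chromosome 5 stayed above the rest by 3.72 to 7.56 points. Mean runs were 2.46 to 5.21 bins. Depth differed: the median deeper column had 35922 reads among cells 1 to 29 against 124072 among cells 30 to 86. Its part in these values was not tested. No paired analysis was possible because all cells form 1 group, with no replicate numbers shared between groups. Differences between arms, between the sides of a border and between chromosomes were taken within each cell.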
